A study of Mus musculus with 6 samples.

Results

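Acute phase plasma proteins are secreted by hepatocytes, and their blood levels change when an infection or injury signals to the liver. The set described here holds 10 genes, Crp, Saa1, Saa2, Saa4, Itih1, Itih2, Itih3, Itih4, Hp and Orm1, out of 16277 genes measured. A probe set, the unit of an exon array that reads about 1 exon, was taken as a member's when the array annotation gave it exactly 1 gene symbol and that symbol was in the set. This rule found 115 of the 208397 probe sets with 1 symbol. Itih2 and Itih4 had 24 probe sets each, Itih1 had 21, Itih3 20, Hp and Orm1 7 each, Crp and Saa4 5 each, and Saa1 and Saa2 1 each.

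SRSF3, an SR protein, regulates the splicing of other genes' transcripts. The 6 arrays hold total liver RNA of untreated mice aged 1 month, 3 from mice with a hepatocyte knockout of Srsf3 (SRSF3HKO) and 3 from age-matched wild-type mice (WT), which the series title calls littermates. The strain, the Cre driver and the deleted part of the gene are not given in the sources used here, and the labels do not say that each WT array came from its own mouse, so p-values measure the spread between these samples. Because whole liver was measured, fewer hepatocytes and less RNA per hepatocyte cannot be told apart.

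The acute phase response is driven mainly by interleukin 6, which acts through the receptor subunit gp130 and the transcription factor STAT3, and by interleukin 1, which acts through NF-kB. C/EBP factors, HNF1 and the glucocorticoid receptor also act on the promoters of acute phase genes. In the mouse, serum amyloid A and serum amyloid P are the strongly induced proteins, whereas C-reactive protein, a major reactant in humans, changes little. Inter-alpha-inhibitor is built from a light chain, bikunin, made from the Ambp precursor, and heavy chains made from the Itih genes. The heavy chains are passed on to hyaluronan and stabilise the matrix around cells.

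Each level below is log2(intensity + 16), the median over a gene's probe sets on 1 array, and each change is SRSF3HKO minus WT on that scale with its SE and 3 arrays per group. Genes were tested with limma over all 11709 genes above a detection floor of 5.35, and a gene was called at an adjusted p under 0.05. On this basis 5 of the 10 genes fell and none rose. They were Crp, Itih1, Itih4, Saa4 and Saa2. Across all tested genes 5.03% fell and 6.85% rose. At an unadjusted p under 0.05, 6 of the 10 passed, beside 29% of all tested genes. The median change over the 10 genes was -1.27, beside 0.08 over all tested genes. For 6 of the 10 genes every array of 1 group lay on the same side of every array of the other, which held for 35.6% of all tested genes; over genes of either direction the share called was 11.9%.

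**Figure D1:**
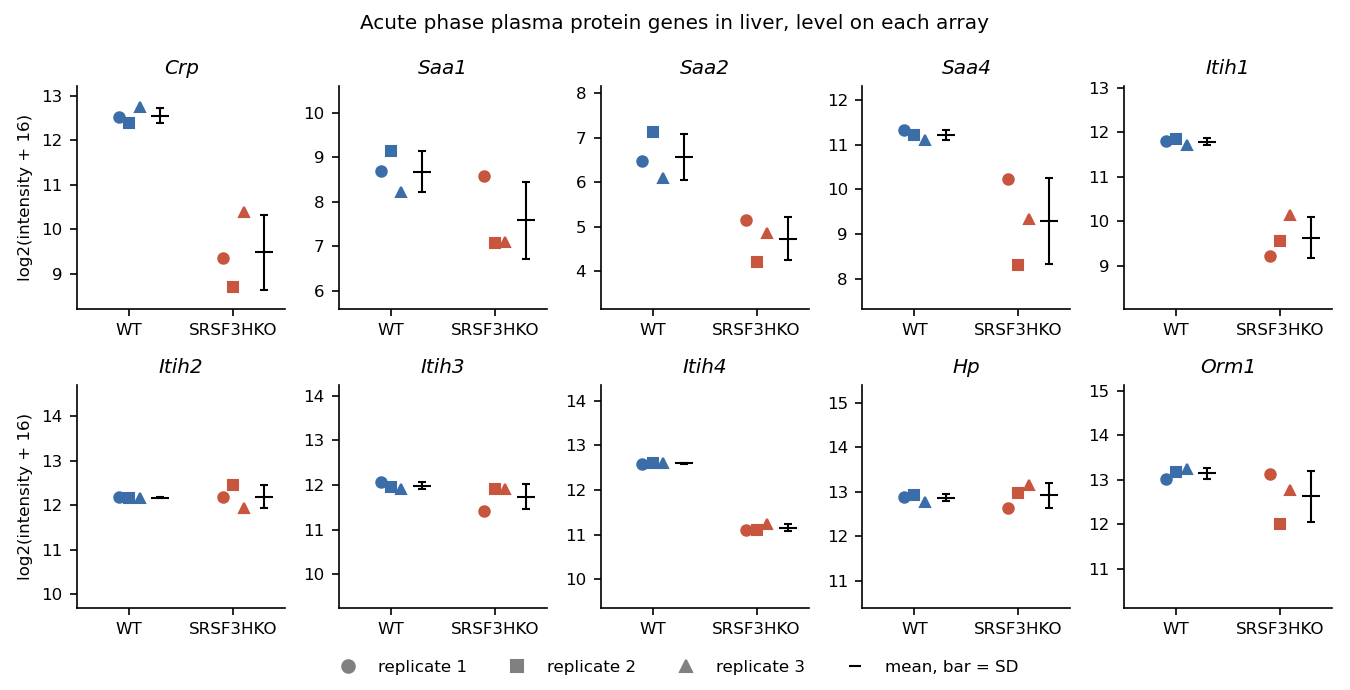
Level of each of the 10 genes on each array, as log2(intensity + 16), with WT in blue and SRSF3HKO in red; symbols mark the replicate, and the black bar is the mean with its SD (n = 3). Every panel spans the same number of log2 units, and the SRSF3HKO arrays lie below the WT arrays for Crp, Saa2, Saa4, Itih1, Itih3 and Itih4.

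Some facts of the whole series bear on these values. Median intensity lay between 75.3 and 89.6 on the 6 arrays, and the number of arrays limits the precision. The target gene Srsf3 had levels of 9.79, 9.24 and 9.35 in WT against 10.30, 9.10 and 9.78 in SRSF3HKO (change 0.26 ± 0.31, limma adjusted p = 0.625). Since the deleted exons are not given in the sources used here, this level cannot check the genotype labels. The Y-linked gene Eif2s3y was above the floor on 2 WT arrays and 1 SRSF3HKO array, so both groups mix arrays with and without Y-linked signal. The defining hepatocyte marker, albumin (Alb), had levels of 13.88 to 13.92 in WT and 13.75 to 13.95 in SRSF3HKO (limma adjusted p = 0.930). SRSF3HKO replicate 1 stood apart in macrophage markers, which are described with the other cell types below.

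Crp had the largest fall of the 10. It codes for C-reactive protein, a pentraxin that binds phosphocholine on microbes and dying cells. Its level was 12.53, 12.39 and 12.74 on the WT arrays and 9.36, 8.70 and 10.38 on the SRSF3HKO arrays. The groups stood far apart, and the SRSF3HKO arrays spread more widely than the WT arrays (SD 0.85 against 0.17, n = 3 each). The change was -3.07 ± 0.38, or 8.41-fold lower (limma adjusted p = 0.00366), with a 95% confidence interval from -3.94 to -2.20. In intensity units Crp went from 6023 ± 733 in WT to 787 ± 476 in SRSF3HKO (SD, n = 3). All 5 Crp probe sets fell, by changes from -3.07 to -1.82 (limma adjusted p from 0.00259 to 0.0192). Of all 157861 tested probe sets 4.32% were called lower and 4.73% higher, 9.04% in all. Its neighbour on chromosome 1, Apcs, codes for serum amyloid P, the other short pentraxin of the liver. Apcs had levels of 9.75, 9.87 and 9.46 in WT against 9.34, 9.09 and 9.28 in SRSF3HKO. The groups did not overlap, yet the change of -0.45 ± 0.19 did not pass the test (limma adjusted p = 0.162).

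The 250 bases before the Crp start are shown because Crp fell most among the 10. Promoter sequences are those of RefSeq on build GRCm38.p6, which held 8 of the 10 genes (none printed for Hp and Orm1), written 5′ to 3′ in the direction of the gene. Capitals mark matches, on either strand, to TTNNGNAA, a C/EBP-type motif, or to TTCNNNGAA, a STAT-type motif; matches to the 2 patterns do not overlap in the sequences printed here.
Crp, chr1:172697806-172698055, plus strand: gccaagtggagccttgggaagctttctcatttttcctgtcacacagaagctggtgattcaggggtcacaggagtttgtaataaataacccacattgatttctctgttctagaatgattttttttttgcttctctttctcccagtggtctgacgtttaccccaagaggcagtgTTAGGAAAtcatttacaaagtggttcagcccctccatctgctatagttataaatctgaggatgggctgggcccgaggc
The C/EBP-type pattern was in 6 of the 8 windows searched, this one included, and in 36.8% of 32851 RefSeq promoter windows of that length, so a match is a description of letters and not a binding site.

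Among the serum amyloid A genes, Saa4 and Saa2 fell. Saa4 codes for the constitutive member of the family, an apolipoprotein of high-density lipoprotein. Its level was 11.34, 11.23 and 11.12 in WT against 10.24, 8.30 and 9.33 in SRSF3HKO. The WT arrays were tightly grouped, and SRSF3HKO replicate 2 was lowest and replicate 1 nearest to WT. The change was -1.94 ± 0.42, or 3.84-fold lower (limma adjusted p = 0.0256), and all 5 probe sets fell, from -2.32 to -1.73. The call ended without any of the WT replicates (limma adjusted p = 0.105, 0.104 and 0.0799 without replicates 1, 2 and 3), without SRSF3HKO replicate 3 (0.0542) and with Y-linked signal as a covariate (0.0641). The difference was -1.96 within the arrays that carried Y-linked signal (2 WT and 1 SRSF3HKO) and -1.85 within those that did not (1 WT and 2 SRSF3HKO), each with a single array in 1 group and no test.

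Saa1 and Saa2 code for the inducible serum amyloid A proteins, which displace other apolipoproteins from high-density lipoprotein during inflammation. The probe set annotated to Saa2 alone had levels of 6.48, 7.12 and 6.10 in WT against 5.15, 4.21 and 4.86 in SRSF3HKO. All SRSF3HKO values lay below the detection floor and all WT values above it, so the fall of Saa2 is a bound, at least 2.33-fold lower with a limma adjusted p of 0.0122. The probe set of Saa1 alone read 8.69, 9.13 and 8.21 in WT against 8.58, 7.07 and 7.10 in SRSF3HKO. SRSF3HKO replicate 1 lay within the WT range and the other SRSF3HKO arrays below it. The change of Saa1 was -1.10 ± 0.43, which did not pass (limma adjusted p = 0.134). Without SRSF3HKO replicate 1 it was -1.60 and passed (limma adjusted p = 0.0160). Leaving out WT replicate 1 or 2 ended the Saa2 call (limma adjusted p = 0.0558 and 0.0564).

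Because Saa1 and Saa2 are near-identical neighbours on chromosome 7, another 8 probe sets were annotated to both and belong to neither under the rule. They were examined after the annotation had been seen. Of these, 6 were bright enough to test, all 6 had negative changes, from -2.29 to -0.48, and 3 were called lower. Probe set 5364457 went from 8.22, 8.42 and 7.97 in WT to 6.78, 4.94 and 6.02 in SRSF3HKO (limma adjusted p = 0.0140). Probe set 4618631, the brightest, went from 10.50, 10.84 and 10.30 to 10.39, 8.31 and 8.71, so that SRSF3HKO replicate 1 again lay within the WT range (limma adjusted p = 0.0979). When both genes were taken as 1 gene with all 10 probe sets, the level was 7.69, 7.81 and 7.18 in WT against 6.50, 5.68 and 5.80 in SRSF3HKO. The groups did not overlap, and the change was -1.57 ± 0.28 (limma adjusted p = 0.0127). The family member Saa3, which macrophages and fat also make, had levels of 7.52, 7.54 and 7.35 in WT against 8.47, 6.94 and 6.94 in SRSF3HKO (change -0.02 ± 0.40, limma adjusted p = 0.984). SRSF3HKO replicate 1 was above the WT range and the other SRSF3HKO arrays below it.

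**Figure D2:**
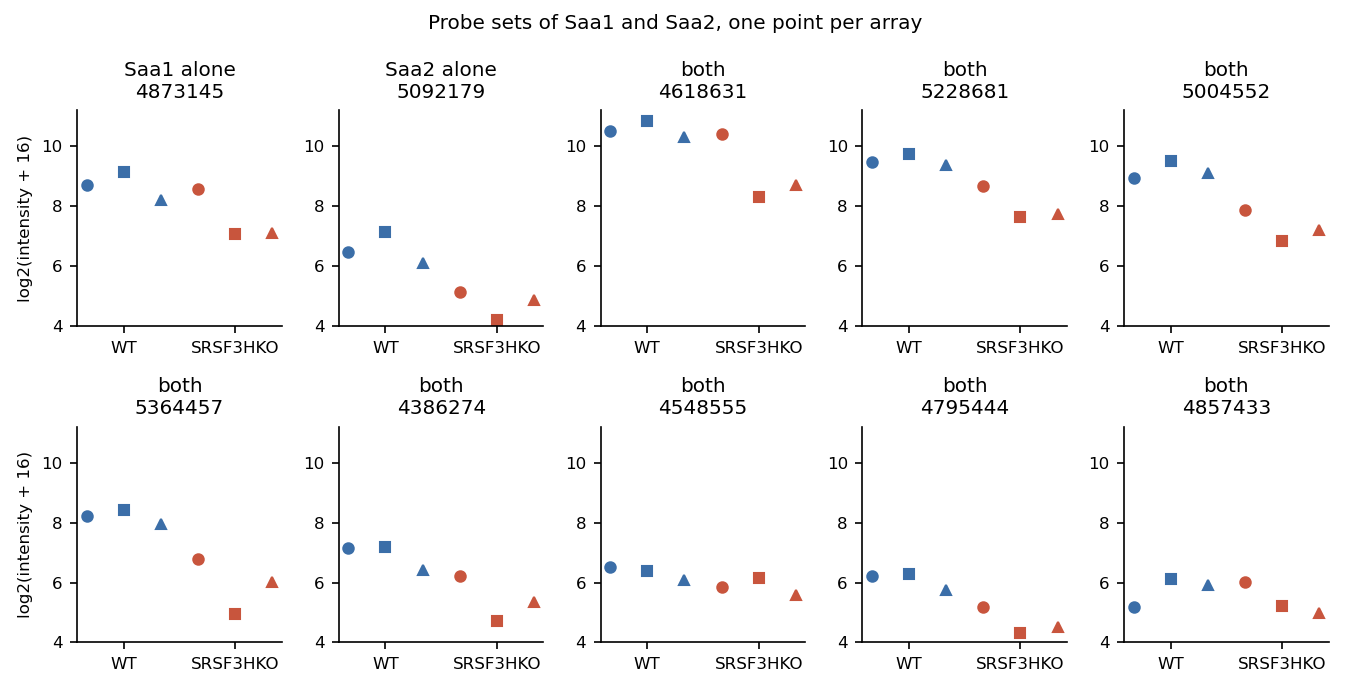
Level of the probe sets annotated to Saa1 alone, to Saa2 alone and to both genes, as log2(intensity + 16), with 1 point per array, WT in blue and SRSF3HKO in red, and circles, squares and triangles for replicates 1, 2 and 3. SRSF3HKO replicate 1 is the highest of the SRSF3HKO arrays in all but probe set 4548555.

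The likeness of the pair extends to the promoters, which are shown to let the copies be compared. Over the 250 bases before the start they were identical at 238 of 251 aligned positions (94.8%).
Saa1, chr7:46742981-46743230, minus strand: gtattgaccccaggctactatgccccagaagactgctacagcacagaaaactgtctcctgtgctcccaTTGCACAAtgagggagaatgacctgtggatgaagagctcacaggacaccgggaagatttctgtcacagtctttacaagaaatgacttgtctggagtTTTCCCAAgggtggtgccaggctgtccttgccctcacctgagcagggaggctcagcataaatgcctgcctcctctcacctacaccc
Saa2, chr7:46751583-46751832, plus strand: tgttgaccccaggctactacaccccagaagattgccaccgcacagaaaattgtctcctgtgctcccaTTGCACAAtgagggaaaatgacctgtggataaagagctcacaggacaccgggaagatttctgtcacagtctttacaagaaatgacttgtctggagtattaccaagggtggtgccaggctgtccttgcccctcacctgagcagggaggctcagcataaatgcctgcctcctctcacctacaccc
In capitals, the copies share the C/EBP-type match TTGCACAA, which lies 182 to 175 bases before the Saa1 start and 183 to 176 bases before the Saa2 start, and Saa1 has TTTCCCAA 86 to 79 bases before its start in addition.

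The inter-alpha-inhibitor heavy chain genes divided into a pair that fell and a pair that did not pass. Itih1, heavy chain H1, had levels of 11.80, 11.85 and 11.70 in WT against 9.22, 9.55 and 10.13 in SRSF3HKO. The groups were widely separated, with replicate 3 the highest of the SRSF3HKO arrays. The change was -2.15 ± 0.24, or 4.45-fold lower (limma adjusted p = 0.00251), with a 95% confidence interval from -2.71 to -1.59. Each of its 21 probe sets fell, by -2.47 to -1.66 in log2 units. Itih4, whose product is not bound to bikunin and is cleaved by kallikrein in human plasma, had levels of 12.59, 12.60 and 12.60 in WT against 11.11, 11.11 and 11.24 in SRSF3HKO. This median over the probe sets was tight in both groups (SD 0.0035 and 0.075, n = 3 each). Some single probe sets of Itih4 varied more between arrays than the median. Probe set 4334514 read 12.08, 12.27 and 11.95 in WT, and probe set 4836063 read 10.84, 10.19 and 10.54 in SRSF3HKO. Others stayed close, such as probe set 5449453 at 11.62, 11.66 and 11.63 in SRSF3HKO. The change of the Itih4 level was -1.44 ± 0.15, or 2.72-fold lower (limma adjusted p = 0.00174). The Crp, Itih1 and Itih4 calls held under all 20 alternatives, the highest limma adjusted p being 0.0313, 0.0274 and 0.0219.

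Itih2, heavy chain H2, had levels of 12.17, 12.16 and 12.16 in WT against 12.19, 12.45 and 11.94 in SRSF3HKO. The WT values lay inside the SRSF3HKO range, and the change was 0.03 ± 0.18 (limma adjusted p = 0.931), with a 95% confidence interval from -0.38 to 0.44. Itih3, heavy chain H3, had levels of 12.07, 11.95 and 11.92 in WT against 11.41, 11.90 and 11.90 in SRSF3HKO. SRSF3HKO replicates 2 and 3 lay just under the lowest WT array and replicate 1 further below. The change of Itih3 was -0.24 ± 0.19 (limma adjusted p = 0.437), with an interval from -0.67 to 0.19, and without SRSF3HKO replicate 1 it was -0.079 (limma adjusted p = 0.814). None of the 24 Itih2 and 20 Itih3 probe sets was called, the lowest limma adjusted p being 0.201 and 0.239. Ambp, the source of bikunin, had levels of 12.92, 13.01 and 12.98 in WT against 12.99, 13.00 and 12.98 in SRSF3HKO (change 0.02 ± 0.14, limma adjusted p = 0.943). Itih5, a heavy chain gene outside the set and the neighbour of Itih2 on chromosome 2, rose. Its levels were 7.00, 6.62 and 6.91 in WT against 8.39, 8.69 and 8.33 in SRSF3HKO, a change of 1.63 ± 0.20, or 3.09-fold higher (limma adjusted p = 0.00374).

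**Figure D3:**
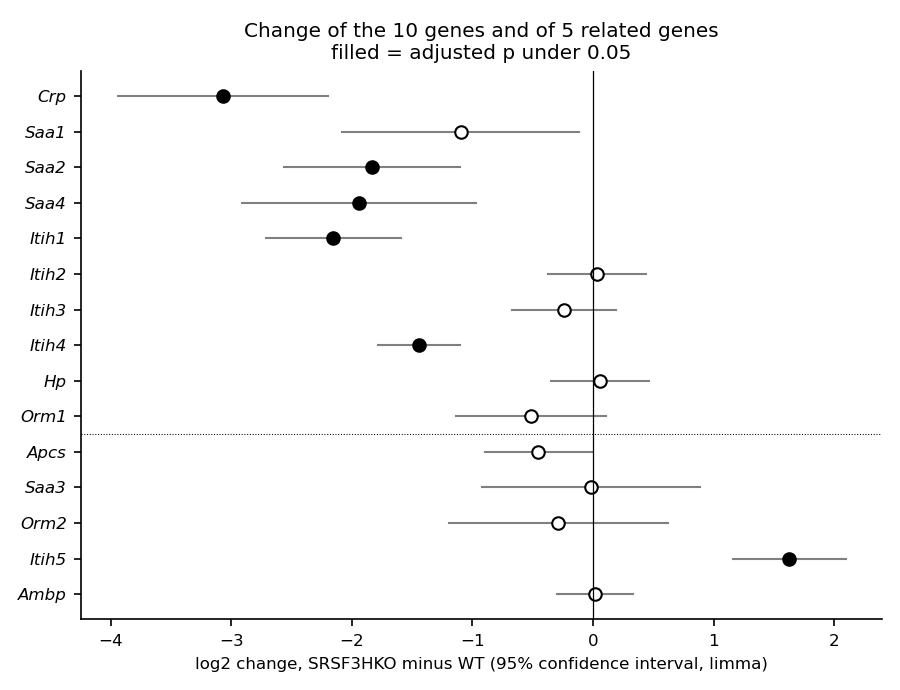
Change of each of the 10 genes and, under the dotted line, of 5 related genes, as SRSF3HKO minus WT in log2 units with the 95% confidence interval of limma (n = 3 arrays per group); filled points passed an adjusted p of 0.05. Crp lies farthest to the left at -3.07, and Itih5 alone lies to the right with a call.

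Differences between the changes of the heavy chain genes were set out for all 6 pairs from the per-array log2 differences. The change of Itih1 less that of Itih2 was -2.18, and the change of Itih3 less that of Itih4 was 1.20. In 5 of the pairs the groups did not overlap and the two-sided exact permutation p was 0.1, the smallest that 3 against 3 arrays allow (0.12 after adjustment over the 6 pairs), so this exact test cannot pass 0.05 with these arrays. For Itih2 and Itih3, the pair that did not pass as genes, it was 0.4, with a difference between their changes of 0.27. The falls of Itih1 and Itih4 also differed by 0.71 in log2 units, Itih1 being the more reduced (exact permutation p = 0.1).

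Itih1, Itih3 and Itih4 are consecutive genes on chromosome 14, with Itih3 in the middle. The outer genes fell and the change of the middle gene did not pass the test. The 250 bases before their starts are shown for this reason, and the capitals have the same meaning as above.
Itih4, chr14:30886226-30886475, plus strand: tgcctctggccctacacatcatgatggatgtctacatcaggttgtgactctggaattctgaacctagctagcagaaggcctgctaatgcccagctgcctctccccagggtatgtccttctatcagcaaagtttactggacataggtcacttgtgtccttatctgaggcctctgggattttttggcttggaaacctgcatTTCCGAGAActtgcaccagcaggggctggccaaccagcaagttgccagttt
Itih3, chr14:30923588-30923837, minus strand: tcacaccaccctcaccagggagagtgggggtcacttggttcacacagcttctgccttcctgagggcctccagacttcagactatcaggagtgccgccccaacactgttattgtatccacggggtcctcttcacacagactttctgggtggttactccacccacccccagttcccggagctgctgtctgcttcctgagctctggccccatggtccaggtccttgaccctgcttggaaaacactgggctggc
Itih1, chr14:30943290-30943539, minus strand: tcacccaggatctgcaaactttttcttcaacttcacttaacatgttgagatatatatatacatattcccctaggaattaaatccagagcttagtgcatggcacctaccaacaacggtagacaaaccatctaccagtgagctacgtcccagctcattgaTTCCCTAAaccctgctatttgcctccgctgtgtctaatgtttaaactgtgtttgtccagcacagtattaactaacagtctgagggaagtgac
The Itih4 window holds the STAT-type match TTCCGAGAA at 51 to 43 bases before the start, a pattern found in 7.02% of the 32851 windows. The Itih1 window holds the C/EBP-type match TTCCCTAA at 92 to 85 bases, and neither pattern occurs in the Itih3 window. Matches did not follow the calls, since the window of Itih2, not printed here, holds 2 C/EBP-type matches although Itih2 did not pass. They lie at 59 to 52 and 33 to 26 bases before its start. Matches to GTTAATNAT (HNF1-type), CAAAGTCCA (HNF4-type) and GGNNTTTCC (NF-kB-type), which 0.737%, 0.384% and 4.93% of all windows hold, were in none of the 8 windows searched.

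Haptoglobin and orosomucoid did not pass. Hp codes for haptoglobin, which binds free haemoglobin. Its levels were 12.88, 12.94 and 12.78 in WT against 12.63, 12.97 and 13.16 in SRSF3HKO, on both sides of the WT range. The change was 0.05 ± 0.18 (limma adjusted p = 0.874), with a 95% confidence interval from -0.35 to 0.46, so a change as large as that of Itih4 lies outside it. Of its 7 probe sets 6 had mean levels above the 99th percentile of all probe sets on the arrays (12.04). Such brightness was not particular to Hp, since the mean levels of Itih2 and Orm1 lay above that value in both groups. Orm1 codes for orosomucoid, an acid glycoprotein that binds drugs and lipids. Its levels were 13.02, 13.17 and 13.25 in WT against 13.12, 12.002 and 12.77 in SRSF3HKO. SRSF3HKO replicate 2 alone was far below the WT arrays, and replicate 1 lay among them. The change was -0.51 ± 0.27 (limma adjusted p = 0.253), and all 7 probe sets had negative changes, from -0.77 to -0.40, none called. Without SRSF3HKO replicate 2 it was -0.20, and without replicate 1 it was -0.76 (limma adjusted p = 0.456 and 0.0819). Its paralogue Orm2, whose probes may also bind Orm1 transcripts (not tested), had a change of -0.29 ± 0.40 (limma adjusted p = 0.679).

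At the level of probe sets, 56 of the 115 fell and none rose, beside 4.32% and 4.73% of all tested probe sets. For 67 of the 115 the arrays of the groups did not overlap, beside 31.8% of all tested probe sets. Within the 5 genes that fell the calls were complete, with 5 of 5 in Crp, 21 of 21 in Itih1, 24 of 24 in Itih4, 5 of 5 in Saa4 and the single one of Saa2. These are not separate support, since a gene's level is the median of the same probe sets on the same arrays. For Saa2 the probe set is the gene value itself. limma's diffSplice was then used to ask, for 113 of the probe sets, whether a probe set changed by another amount than the rest of its gene, here called usage. It was called for 1 of them, beside 0.666% of 142887 probe sets in all, and Itih4 was the only gene of the set called for usage, beside 5.83% of 12255 genes. This was probe set 4356471 of Itih4, which read 12.10, 11.82 and 12.06 in WT against 9.52, 10.27 and 9.92 in SRSF3HKO, a usage change of -0.69 (diffSplice adjusted p = 0.0102). A per-array splicing index, which gives each probe set its own spread, did not call it (limma adjusted p = 0.334). Leaving out SRSF3HKO replicate 1 or 3 or WT replicate 1 or 3 also ended the call (diffSplice adjusted p = 0.222, 0.112, 0.256 and 0.110). The changes of the 24 Itih4 probe sets ran from -2.09 to -0.94.

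**Figure D4:**
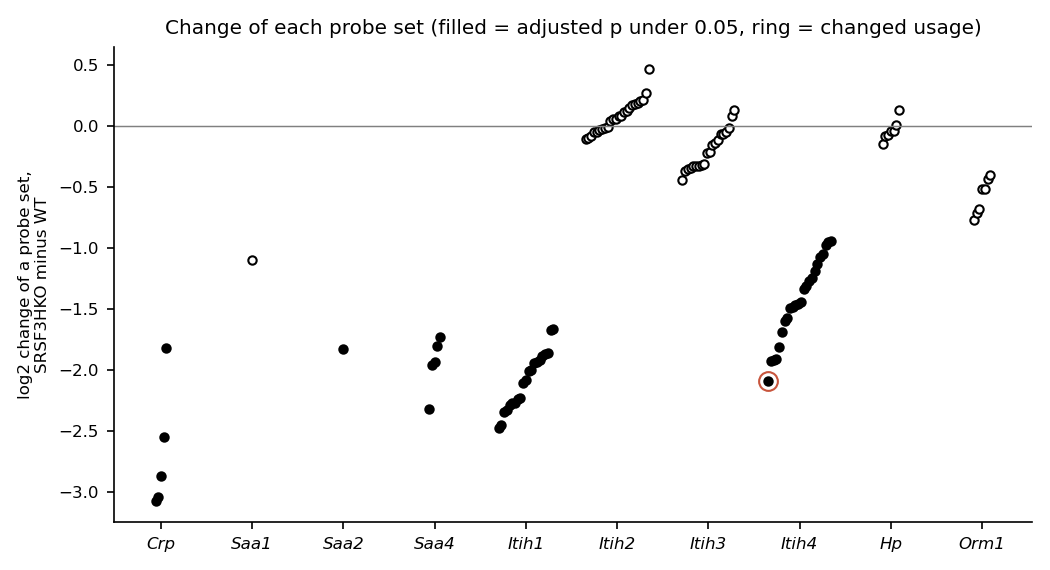
Change of each of the 115 probe sets, as SRSF3HKO minus WT in log2 units, ordered by size within each gene; filled points passed an adjusted p of 0.05 and the ring marks the probe set called for usage. All probe sets of Crp, Saa4, Itih1 and Itih4 lie at -0.94 or lower, and those of Itih2 lie on both sides of 0.

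The SRSF3HKO arrays differed from one another more than the WT arrays did. The SD was larger in SRSF3HKO for 9 of the 10 genes, all but Saa2, with a median of 0.471 against 0.0964 in WT. The share of all genes with a larger SD in SRSF3HKO was not counted. Over all measured genes, Pearson's r was 0.979 to 0.984 between WT arrays and 0.940 to 0.965 between SRSF3HKO arrays. The wider spread was thus not particular to these 10 genes. The order of the SRSF3HKO arrays was not the same for all genes. Replicate 2 was the lowest for Crp, Saa1, Saa2, Saa4 and Orm1, and replicate 1 was the lowest for Itih1, Itih3 and Hp. For Itih4, replicates 1 and 2 were nearly equal (11.1073 and 11.1085). Of its probe sets, 11 were lowest on replicate 1 and 13 on replicate 2. For Crp, replicate 3 stood 0.90 above the SRSF3HKO mean, and within the arrays with Y-linked signal, which include it, the change was -2.08, against -3.71 within those without. For Itih1 these values were -1.70 and -2.32, and for Itih4 -1.36 and -1.49, again with a single array in 1 group. Saa1, which did not pass, had -1.82 and -0.39.

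For each of the 10 genes, the gene outside the set with the most similar levels over the 6 arrays was looked up among 11303 tested genes with at least 3 probe sets. These are correlations over 6 arrays that include the difference between the groups, and the best of many genes is high by selection. For Itih1 it was Il1rap, the accessory protein of the interleukin 1 receptor, at Pearson's r of 0.999. Il1rap had levels of 10.47, 10.43 and 10.44 in WT against 7.87, 8.18 and 8.73 in SRSF3HKO, a change of -2.19 ± 0.24 (limma adjusted p = 0.00234). For Itih4 it was Hgfac, the activator of hepatocyte growth factor, at 0.998, with a change of -2.34 ± 0.17 (limma adjusted p = 0.000533). For Crp it was the adhesion molecule gene Ceacam2 at 0.998, for Saa4 the deacetylase gene Aadac at 0.997 and for Saa2 Cadm3 at 0.989. For Saa1 it was Gng10 at 0.989, for Orm1 Wfdc1 at 0.995, for Itih3 Tnfsf15 at 0.992, for Itih2 Btg1 at 0.990 and for Hp Tom1l1 at 0.987.

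Of 22 tested genes outside the set that were listed here as positive acute phase genes, 1 fell and 3 rose, with a median of -0.16. Over all tested genes 5.03% fell and 6.85% rose. The fibrinogen chain gene Fga fell by 0.88 on the log2 scale (limma adjusted p = 0.0429), while Fgb and Fgg had changes of -0.14 and -0.28 (limma adjusted p = 0.534 and 0.255). Those that rose were Itih5, the hepcidin gene Hamp and the endotoxin co-receptor gene Cd14. Whether Itih5, the heavy chain gene described above, responds in the acute phase was not tested. Hamp, read by 1 probe set, changed by 1.60 ± 0.38 (limma adjusted p = 0.0331). Cd14 was at least 3.54-fold higher since its WT level was below the floor (limma adjusted p = 0.0340). Haemopexin (Hpx), which binds haem, had a change of 0.08 (limma adjusted p = 0.769). Lcn2, a siderophore-binding protein named here after its values were seen, had levels of 7.32, 7.66 and 8.31 in WT against 12.84, 8.34 and 8.56 in SRSF3HKO (limma adjusted p = 0.218). SRSF3HKO replicate 1 stood far above the other 5 arrays, and the remaining SRSF3HKO arrays lay just above the WT arrays. Of 11 negative acute phase genes, whose products drop in blood during inflammation, 3 fell and none rose, with a median of -0.25. They were Serpina6, the corticosteroid-binding globulin (-1.80 ± 0.39), the paraoxonase gene Pon1 (-1.21 ± 0.20) and Fetub (-1.09 ± 0.18), with limma adjusted p of 0.0256, 0.00975 and 0.0111.

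The signalling genes upstream of these proteins were counted by pathway. Of 11 tested genes of the interleukin 6 family, 1 fell and 1 rose, with a median of -0.07. Lifr, the receptor of leukaemia inhibitory factor, fell from 11.17, 11.28 and 11.03 in WT to 8.94, 9.11 and 9.27 in SRSF3HKO (change -2.05 ± 0.18, limma adjusted p = 0.00102), and the phosphatase gene Ptpn11 rose by 0.73 ± 0.20 (limma adjusted p = 0.0482). Il6st, which codes for gp130, had a change of -0.50 ± 0.20 with no overlap between the groups (limma adjusted p = 0.140). Stat3 (0.11 ± 0.33) and its feedback inhibitor Socs3 (0.86 ± 0.44) did not pass (limma adjusted p = 0.862 and 0.243). Of 31 called genes named here outside the set, those of the lists and the most similar genes, 27, 27 and 22 lost their call without WT replicates 1, 2 and 3, and Itih5, Lifr, Il1rap and Hgfac kept it under all 20 alternatives. The level of Il6 was below the floor on every array. Of 20 genes of interleukin 1, TNF and NF-kB signalling, 1 fell and 2 rose, with a median of 0.23. Il1rap is the one that fell, and the cytokine gene Il1b rose from 6.36, 5.18 and 6.20 to 8.87, 8.51 and 7.40 (change 2.35 ± 0.43, limma adjusted p = 0.0149). The adaptor gene Myd88 rose by 0.91 ± 0.24 (limma adjusted p = 0.0439). Its call ended under 11 of the 20 alternatives, among them the mean over probe sets in place of the median (limma adjusted p = 0.739). The Ptpn11 call ended under 14 of the 20. The NF-kB subunit genes Nfkb1 (-0.41 ± 0.22) and Rela (0.40 ± 0.18) did not pass (limma adjusted p = 0.267 and 0.188).

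Among 11 transcription factors of acute phase promoters, 2 fell and none rose, with a median of -0.25. Cebpa had levels of 9.58, 9.52 and 9.69 in WT against 8.39, 7.34 and 8.63 in SRSF3HKO (change -1.48 ± 0.33, limma adjusted p = 0.0263). The glucocorticoid receptor gene Nr3c1 fell from 8.90, 8.83 and 9.05 to 8.11, 8.19 and 8.22 (change -0.76 ± 0.18, limma adjusted p = 0.0320). Cebpb (-0.06 ± 0.18) and Hnf4a (-0.18 ± 0.20) did not pass (limma adjusted p = 0.855 and 0.585). Of 19 genes of the secretory pathway and glycosylation, which every plasma protein passes through, 5 fell and none rose, with a median of -0.40. The lowest adjusted p belonged to the sialyltransferase gene St6gal1 (-1.24 ± 0.22), itself induced in the acute phase of rodents, the disulfide isomerase genes Pdia3 (-0.71 ± 0.16) and Pdia4 (-0.76 ± 0.18) and the oligosaccharyltransferase gene Ddost (-0.73 ± 0.19), with limma adjusted p of 0.0125, 0.0262, 0.0308 and 0.0434. The other was the chaperone gene Calr (-0.98, limma adjusted p = 0.0439). Of 13 receptors and clearance genes, 1 fell and 2 rose, with a median of 0.51. Lrp1, a receptor that takes up haemopexin bound to haem, fell by 0.75 on the log2 scale, whereas haem oxygenase 1 (Hmox1, 2.10 ± 0.33) and the scavenger receptor gene Cd36 (1.44 ± 0.35) rose (limma adjusted p = 0.0430, 0.00842 and 0.0356). Of 5 tested inter-alpha-inhibitor partners and hyaluronan genes none passed, at a median of 0.02. Tnfaip6, which transfers heavy chains to hyaluronan, had a mean below the floor in both groups.

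**Figure D5:**
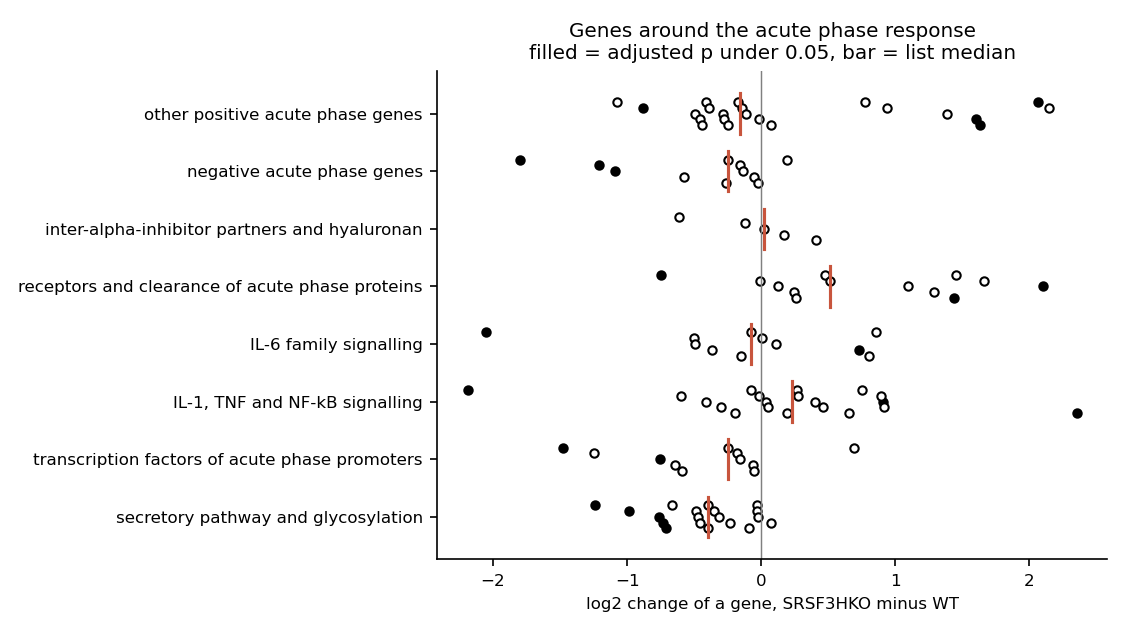
Change of each tested gene of 8 lists around the acute phase response, as SRSF3HKO minus WT in log2 units; filled points passed an adjusted p of 0.05 and the red bar is the median of the list. Il1rap and Lifr are the lowest points of their lists, at -2.19 and -2.05.

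Markers of other liver cells varied between arrays. Of 10 macrophage markers 1 rose (Marco, 2.78 ± 0.73, limma adjusted p = 0.0450) and none fell. Their summed intensity was 3105 to 3508 in WT and 3594 to 22014 in SRSF3HKO, with SRSF3HKO replicate 1 at the top and the other arrays of that group at 3594 and 4130. On replicate 1, Saa1 and Orm1 lay within the WT range, Itih2 just above it and the other genes of the set below it. Of 4 tested neutrophil markers, 5 lymphocyte markers, 5 cholangiocyte markers and 4 adipose markers none passed. Summed cholangiocyte markers were 508 to 763 in WT and 857 to 3037 in SRSF3HKO, neutrophil markers 139 to 174 and 168 to 543, lymphocyte markers 251 to 300.0 and 175 to 365, and adipose markers 211 to 281 and 253 to 315. Of 10 endothelial and 10 stellate cell markers, 1 each fell (Kdr -0.87 and Col3a1 -1.41, limma adjusted p = 0.0452 and 0.0434), and 1 of 4 erythroid markers fell (Alas2, -2.35 ± 0.50, limma adjusted p = 0.0228). Their summed intensities were 3612 to 5017 and 2295 to 4722 for endothelial, 3714 to 4671 and 4047 to 6585 for stellate, and 3098 to 10781 and 757 to 9900 for erythroid markers, in WT and SRSF3HKO. Of the defining markers, the adipose marker Adipoq was below the floor in both groups. Of 11 hepatocyte markers 1 fell (Asgr2, -1.02 ± 0.27, limma adjusted p = 0.0455) and none rose, with a median of -0.16 and summed intensities of 82409 to 88897 in WT and 67695 to 84710 in SRSF3HKO. Without SRSF3HKO replicate 1 the changes were -3.01 for Crp, -2.41 for Saa4, -1.95 for Itih1 and -1.42 for Itih4, and all 5 calls held. The part of the other cell types in the results was not tested.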

How the data were processed

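Liver RNA was measured on 6 Affymetrix exon arrays, 3 per group. Per the labels and the submitters' processing notes, PLIER and Expression Console were used by the authors, who deposited linear intensities of core exons; versions, background step and build are not given in the sources used here. Genotype came from the labels. Of the probe sets, 208397 had 1 gene symbol, 3965 several and 17219 none, and older symbols were updated through RefSeq (GRCm38.p6). Intensities were transformed as log2(value + 16), which understates changes of dim genes, and the median over a gene's probe sets was its level. To be tested, a feature's mean had to exceed the 90th percentile over sensory receptor genes (1045 genes of olfaction, pheromone sensing and taste), which was 5.35 for genes and 5.62 for probe sets. A fold against a group below it is a lower bound from the floor.

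The groups were fitted with limma 3.58.1 (eBayes with trend, Benjamini-Hochberg over all features) in R 4.3.3. Usage was tested with diffSplice, which shares 1 spread within a gene, in genes with at least 3 tested probe sets. The functions were checked on simulated data in which all probe sets of a gene had the same noise, as diffSplice assumes. That check cannot show how the usage test behaves where the probe sets of a gene differ in spread. Figures used Python 3.11.15 and matplotlib 3.10.9. The 10 genes, the gene lists (219 genes, 195 measured) and the tests were chosen with earlier results of these data known. Named genes are the 10, their neighbours in function, up to 4 called genes per list with the lowest adjusted p, and the most similar gene of each; Hpx, Fgb, Fgg, Il6, Tnfaip6 and Lcn2 were added after their values were seen. Alternatives varied the pseudocount, normalization, filter, variance model, array weights, threshold, Y-linked signal, summary over probe sets and the arrays kept; taking Saa1 and Saa2 together was added after the data were seen.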

Additional observations from a re-analysis of the deposited data

How the results depend on the processing

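The changes of Crp, Itih1 and Itih4 kept their direction and their call in all 20 alternatives, with ranges of -3.52 to -2.67, -2.40 to -1.95 and -1.50 to -1.36. At a limma adjusted p under 0.01, 3 of the 10 genes were called instead of 5, and leaving out 1 array gave 3 to 6, with 3 without WT replicate 1 or 2 and 6 without SRSF3HKO replicate 1. The cause of these differences was not tested. Saa2 lost its call under 3 alternatives and Saa4 under 6. With the filter at the median Saa2 was too dim to be tested and 4 of the 10 genes were called. The Saa2 change, which depends on the pseudocount because SRSF3HKO was below the floor, ran from -2.99 with a pseudocount of 1 to -0.94 with 64. Over all genes the 1391 calls became 2155 with array weights, 296 at 0.01, 618 with the Y-linked covariate and 244 to 2155 with 1 array left out. Over all probe sets the 14275 calls became 23402, 3340, 6247 and 3006 to 21885 in that order. Genes with a called usage change went from 714 to 340 at 0.01, 388 with the covariate, 21 by the splicing index and 285 to 1499 with 1 array left out. For the usage of the 10 genes' probe sets the count of 1 became 0 at 0.01, 0 by the splicing index and 0 to 8 with 1 array left out, the 8 coming without SRSF3HKO replicate 2. The lower probe sets of the 10 genes numbered 41 to 58 with 1 array left out.

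Changes near 0 turned their sign, none of them called. Itih2 had -0.024 with median centring, -0.067 with array weights, -0.033 with the covariate and -0.099 to 0.16 with 1 array left out. Hp had -0.035 by the mean over probe sets, -0.044 by median polish and -0.067 to 0.20 with 1 array left out. Saa3 had 0.010 with a pseudocount of 64, 0.016 with array weights, 0.078 by the mean, 0.037 by median polish and -0.53 to 0.24 with 1 array left out. Orm2 had 0.0067 with array weights, Stat3 -0.14 with array weights and -0.092 with the covariate, Ambp -0.034 with median centring and Cebpb 0.028 by the mean. With 1 array left out Orm2 ran from -0.58 to 0.19, Ambp from -0.0064 to 0.040, Stat3 from -0.24 to 0.32, Cebpb from -0.11 to 0.018 and Srsf3 from -0.022 to 0.58. Of the 31 other named calls, 24 ended at 0.01, 18 with the covariate and 4 to 27 with 1 array left out, and none turned direction. No paired analysis was possible because the labels give each array a number of its own, and the replicate numbers used here only name arrays within a group in accession order.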
